A study of Rattus with 6 samples.

Results

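The genes described here are 10 feedback inhibitors and transcription factors whose transcription is switched on by the kinase ERK: the dual-specificity phosphatase genes Dusp4, Dusp5 and Dusp6, the Sprouty genes Spry1, Spry2 and Spry4, the Sprouty-related Spred1, and the PEA3 factor genes Etv1, Etv4 and Etv5. They were taken by gene name from a deposited table of 54012 genes, and all 10 had exactly 1 row in it. The set was chosen by gene function with earlier results of these libraries known, and 1 measured value entered the choice, the low FPKM of Etv4 in the third si-CDCP1 library. The Etv4 values are therefore given as a description, without a test.

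The libraries came from primary cultures labelled as vascular smooth muscle cells of the aorta, all of them given angiotensin II (Ang II), the vasoconstrictor peptide hormone, after siRNA transfection. Of the 6 libraries, 3 were made from cultures with a control siRNA (si-NC, genotype label WT) and 3 from cultures with an siRNA against CDCP1 (si-CDCP1, genotype label CDCP1 knockdown), a membrane glycoprotein phosphorylated by Src family kinases. The comparison concerns CDCP1 under Ang II, and a culture without Ang II was not analysed here. The organism label is rat, whereas genes and coordinates are those of the mouse build mm10, so mouse names are used and a low value need not mean a missing transcript.

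ERK is the last kinase of the cascade that runs from growth factor receptors through RAS, RAF and MEK. Active ERK induces genes whose products switch the cascade off again, so that their transcripts are commonly read as a record of recent ERK activity. DUSP phosphatases dephosphorylate MAP kinases directly, Sprouty and Spred proteins act upstream between receptor and RAF, and the PEA3 factors are ETS-domain activators that carry the signal on to further genes. In vascular smooth muscle, ERK is one of the kinases activated by Ang II and takes part in growth and migration.

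Levels are given in FPKM, a fragment count divided by gene length and by library size. With a rat label and mouse genes, values of different genes compare only as far as their reads map alike, which was not tested. The libraries held 16050517 to 19771638 reads in listed genes. Cdcp1 itself had 2, 2 and 1 reads in si-NC replicates 1, 2 and 3 and 0, 5 and 0 reads in si-CDCP1 replicates 1, 2 and 3, so the knockdown could not be checked from these data. Of 8 smooth muscle markers, only Acta2 and Smtn averaged at least 1 FPKM, at 37.4 and 8.26 FPKM in si-NC. Tagln, Cnn1 and Myh11 averaged 0.161, 0.0635 and 0.0130 FPKM and so did not bear out the smooth muscle label. With a rat label and mouse genes such low values need not mean missing transcripts, so the markers do not settle the cell type. The 8 smooth muscle markers summed to 46.0 to 50.4 FPKM in si-NC and 44.6 to 75.9 FPKM in si-CDCP1. The highest sum was that of si-CDCP1 replicate 3, where Acta2 was at 64.2 FPKM against 34.4 to 42.0 FPKM in the other 5 libraries. The summed level of the 5 endothelial markers was 0.676 to 0.742 FPKM in si-NC and 0.802 to 0.874 FPKM in si-CDCP1, with Cdh5 at 0 in every library, and that of the 5 macrophage and blood markers 2.88 to 3.07 against 2.67 to 3.25 FPKM, with Adgre1 at 0. The 6 fibroblast markers summed to 277.0 to 310.4 FPKM in si-NC and 275.1 to 310.1 FPKM in si-CDCP1, nearly all of it Col1a1, the 4 epithelial markers to at most 0.137 and 0.218 FPKM, and the 4 neural markers to at most 5.14 and 5.22 FPKM. The part of these markers in the results below was not tested. The si-CDCP1 replicate 3 library stood apart: of the 12080 genes tested (those that reached 1 FPKM on average over all libraries), 3619 were lower in it than in every other library (30.0%) and 4107 were higher (34.0%). The log2 differences of the 10 genes, and of the other pathway genes named that it moves by more than 1.5 times or to the other sign, are therefore also given without that library. In cultures a lower level can reflect fewer cells with the transcript or less of it per cell, which cannot be told apart here.

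Dusp4 had the highest FPKM of the 10 genes and Etv1 the lowest. In si-NC the mean levels followed the order Dusp4 (31.9 FPKM), Spred1 (21.9), Spry1 (17.0), Spry2 (14.4), Etv4 (13.0), Etv5 (8.74), Dusp6 (7.00), Dusp5 (4.24), Spry4 (1.56) and Etv1 (0.530). Of the neighbours in this order, Spry2 and Etv4 overlapped between the 3 si-NC libraries, and the other 8 pairs did not. Over all 6 libraries Spred1 and Spry1 also overlapped, with Spred1 above Spry1 in 3 of 6 libraries, as did Etv4 and Etv5 and Etv5 and Dusp6, although Etv4 was above Etv5 in 6 of 6 libraries. Etv1 was the 1 gene with a mean under 1 FPKM, so 9 of the 10 genes were tested or, for Etv4, fitted without a test. Spry4 passed that filter narrowly, with a mean of 1.45 FPKM over the 6 libraries. In si-NC replicates 1, 2 and 3 Etv1 had 138, 115 and 129 reads and Spry4 161, 98 and 133. Their listed lengths were 13296 and 4587 bases, so the lower FPKM of Etv1 depends on its listed length.

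**Figure D1:**
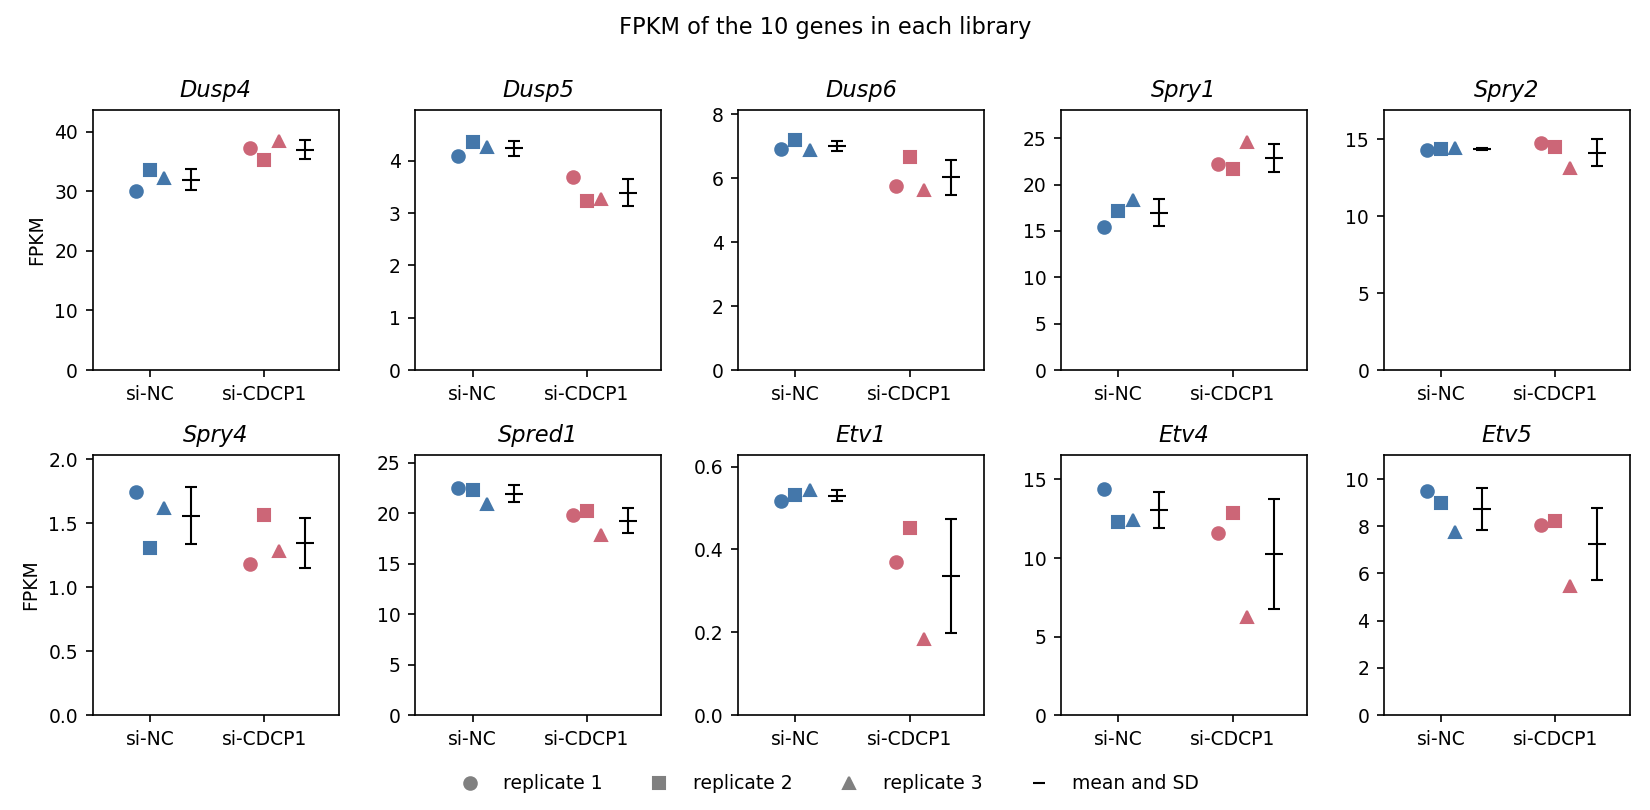
FPKM of each of the 10 genes (vertical axis, from 0, a scale per panel) in the 3 si-NC (blue) and 3 si-CDCP1 (red) libraries, with marker shapes for replicates 1 to 3 and black bars for the group mean and SD. Dusp4 and Spry1 are higher in all 3 si-CDCP1 libraries, and the triangle of si-CDCP1 replicate 3 is the lowest point for Etv1, Etv4 and Etv5.

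Among the phosphatases, Dusp4 had higher values and Dusp5 and Dusp6 lower values in si-CDCP1. Dusp4 encodes a nuclear phosphatase of ERK and other MAP kinases (ENSMUSG00000031530, mm10 chromosome 8, 34807297 to 34819894, plus strand). It was at 30.0, 33.5 and 32.2 FPKM in si-NC replicates 1, 2 and 3 and at 37.2, 35.3 and 38.4 FPKM in si-CDCP1 replicates 1, 2 and 3. All 3 si-CDCP1 libraries were above all 3 si-NC libraries, and the group mean was 15.9% higher. The difference in log2(FPKM + 1), a scale that understates changes of low genes, was 0.21 (SE 0.059), with a Benjamini-Hochberg (BH) adjusted p of 0.281 in limma over all 12080 genes. It was 0.18 without si-CDCP1 replicate 3.

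Dusp5, which encodes a nuclear phosphatase specific for ERK, had the opposite order of groups (ENSMUSG00000034765, mm10 chromosome 19, 53529109 to 53542431, plus strand). Its values were 4.09, 4.36 and 4.27 FPKM in si-NC and 3.69, 3.22 and 3.26 FPKM in si-CDCP1. Every si-CDCP1 library was below every si-NC library, and the group mean was 0.800 times that of si-NC, on 126 to 203 reads per library. The log2 difference was -0.26 (SE 0.071, limma adjusted p = 0.275), and -0.24 without replicate 3.

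Dusp6, the cytoplasmic ERK phosphatase and a widely used readout of ERK activity, was at 6.93, 7.19 and 6.89 FPKM in si-NC and at 5.77, 6.66 and 5.65 FPKM in si-CDCP1 (ENSMUSG00000019960, mm10 chromosome 10, 99263231 to 99267489, plus strand). The groups did not overlap, with si-CDCP1 replicate 2 closest to the controls. The log2 difference was -0.19 (SE 0.071, limma adjusted p = 0.322), and -0.15 without replicate 3. Dusp4 and Dusp6 thus differed in opposite directions within the same libraries: the ratio of their FPKM was 4.33, 4.66 and 4.67 in si-NC and 6.45, 5.30 and 6.81 in si-CDCP1. The deposited annotation lists the same pair of domains for Dusp4, Dusp5 and Dusp6, a dual-specificity phosphatase catalytic domain and a rhodanese-like domain. The sum of the 3 phosphatase genes was 41.0 to 45.1 FPKM in si-NC and 45.1 to 47.4 FPKM in si-CDCP1, most of it Dusp4.

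Among the Sprouty and Spred genes, Spry1 was higher and Spred1 lower in si-CDCP1, while Spry2 differed little in level between libraries. Spry1, whose product restrains receptor tyrosine kinase signalling to RAS and RAF, was at 15.4, 17.2 and 18.3 FPKM in si-NC and at 22.3, 21.7 and 24.6 FPKM in si-CDCP1 (ENSMUSG00000037211, mm10 chromosome 3, 37639947 to 37644598, plus strand). The lowest si-CDCP1 library exceeded the highest si-NC library, and the group mean was 34.8% higher. The log2 difference of 0.41 (SE 0.078) had the smallest unadjusted p of the 8 genes tested, 0.00115 in limma, with an adjusted p of 0.240. Of all genes tested, 1.08% had a larger positive difference. Without si-CDCP1 replicate 3 the log2 difference was 0.36, with a limma adjusted p of 0.107 in these 5 libraries.

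Spry2, a close relative that inhibits the same step, was at 14.3, 14.4 and 14.4 FPKM in si-NC and at 14.8, 14.5 and 13.1 FPKM in si-CDCP1 (ENSMUSG00000022114, mm10 chromosome 14, 105891947 to 105896819, minus strand). The group ranges overlapped because si-CDCP1 replicate 3 was the lowest of the 6 libraries and the other 2 si-CDCP1 libraries were the highest. The log2 difference was -0.02 (SE 0.058, limma adjusted p = 0.859) and turned to 0.03 without replicate 3. The coefficient of variation between the si-NC libraries, 0.371%, was below the 4.29% that counting 489 to 600 reads gives on average. The ratio of Spry1 to Spry2 was 1.07, 1.20 and 1.27 in si-NC and 1.51, 1.50 and 1.88 in si-CDCP1.

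Spred1, which brings the RAS-inactivating protein neurofibromin to the membrane, was at 22.5, 22.3 and 20.9 FPKM in si-NC and at 19.8, 20.2 and 17.8 FPKM in si-CDCP1 (ENSMUSG00000027351, mm10 chromosome 2, 117121374 to 117182279, plus strand). With 1886 to 3065 reads per library it was the member with the most reads, and its groups did not overlap. The log2 difference was -0.18 (SE 0.063, limma adjusted p = 0.319), and -0.13 without replicate 3. Spry4, the other Sprouty gene, was at 1.75, 1.31 and 1.62 FPKM in si-NC and at 1.18, 1.56 and 1.29 FPKM in si-CDCP1 (ENSMUSG00000024427). These groups overlapped, on 92 to 161 reads, and the log2 difference was -0.13 (SE 0.11, limma adjusted p = 0.612), or -0.11 without replicate 3. The 4 Sprouty and Spred genes together summed to 53.9 to 55.3 FPKM in si-NC and 56.8 to 58.0 FPKM in si-CDCP1.

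**Figure D2:**
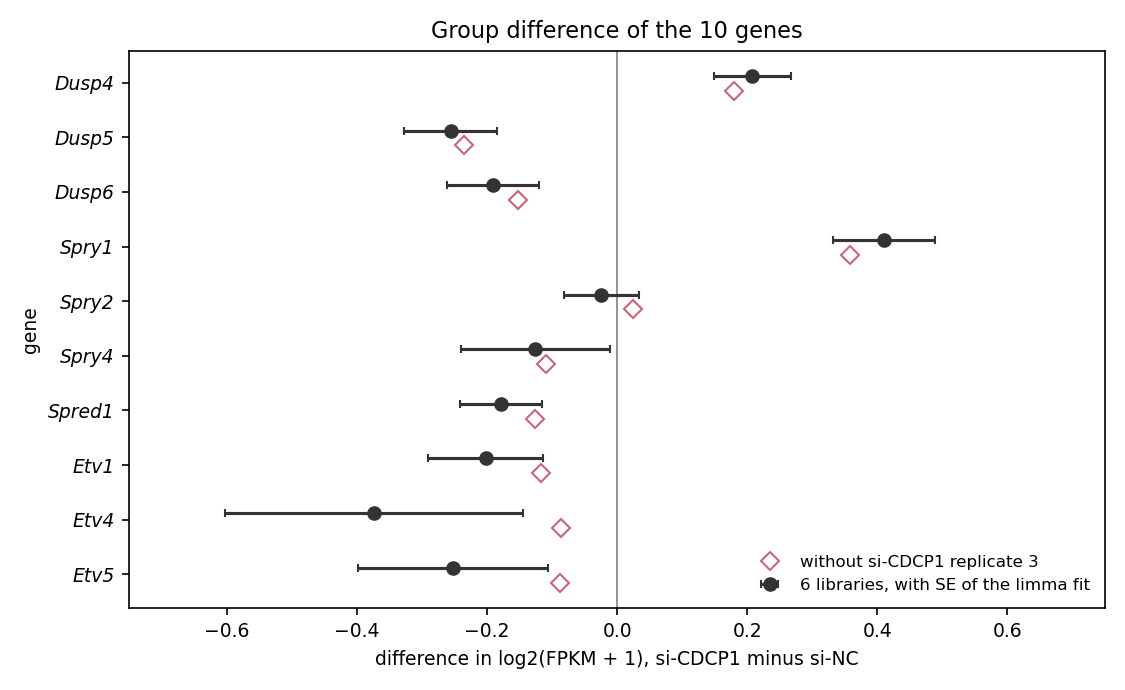
Difference in log2(FPKM + 1), si-CDCP1 minus si-NC (horizontal axis), for each of the 10 genes. Black points with bars are the limma estimate and its SE over 6 libraries (for Etv1 from the fit without a filter), and open diamonds the difference without si-CDCP1 replicate 3, which brings Etv4 from -0.37 to -0.09 and leaves Spry1 at 0.36.

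The PEA3 genes, Etv1, Etv4 and Etv5, had their lowest values in si-CDCP1 replicate 3. Etv4, the founding member of this ETS subfamily, was at 14.4, 12.3 and 12.4 FPKM in si-NC and at 11.6, 12.8 and 6.26 FPKM in si-CDCP1 (ENSMUSG00000017724, mm10 chromosome 11, 101769742 to 101785371, minus strand). Replicate 3 was at 49.2% of the mean of the other 5 libraries, whereas si-CDCP1 replicate 2 was above 2 of the 3 controls. The 303 reads of replicate 3 give an exact Poisson 95% interval of 5.57 to 7.00 FPKM, which covers counting error only. The log2 difference between the groups was -0.37 (SE 0.23), and -0.09 without replicate 3. This low value was known when the genes were chosen, so no test is given.

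Etv5, which has the same ETS and PEA3 domains in the deposited annotation, was at 9.49, 8.98 and 7.74 FPKM in si-NC and at 8.04, 8.24 and 5.48 FPKM in si-CDCP1 (ENSMUSG00000013089, mm10 chromosome 16, 22381309 to 22439719, minus strand). Replicate 3 was again lowest, at 64.5% of the mean of the other 5 libraries, with a Poisson 95% interval of 4.92 to 6.09 FPKM on 351 reads. The other 2 si-CDCP1 libraries lay within the si-NC range. The log2 difference was -0.25 (SE 0.15, limma adjusted p = 0.440), and -0.09 without replicate 3.

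Etv1, the third PEA3 gene, was at 0.517, 0.530 and 0.543 FPKM in si-NC and at 0.369, 0.452 and 0.183 FPKM in si-CDCP1 (ENSMUSG00000004151, mm10 chromosome 12, 38779380 to 38870484, plus strand). All 3 si-CDCP1 libraries were below the controls, and replicate 3 was at 38.0% of the mean of the other 5 libraries on 38 reads (Poisson 95% interval 0.130 to 0.251 FPKM). The si-NC values differed less than counting error gives on average, with a coefficient of variation of 2.45% against 8.86%. In the limma fit without a filter, over 26005 genes, the log2 difference was -0.20 (SE 0.088, adjusted p = 0.566), and without replicate 3 it was -0.12. On recovered reads, where low genes are not damped by the added 1 FPKM, limma voom gave a log2 difference of -0.74 (SE 0.26, adjusted p = 0.268), and -0.38 without replicate 3.

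The 3 PEA3 genes together summed to 24.4, 21.8 and 20.7 FPKM in si-NC, to 20.0 and 21.5 FPKM in si-CDCP1 replicates 1 and 2 and to 11.9 FPKM in replicate 3. Most of each sum was Etv4, at 6.26 FPKM in replicate 3 against a mean of 12.7 FPKM in the other 5 libraries. The low sum in replicate 3 therefore rests largely on the value that entered the choice of genes. The ratio of Etv4 to Etv5 was 1.14 in replicate 3 and 1.37 to 1.61 in the other 5 libraries, on the Etv4 value that entered the choice of genes. Besides Etv4 and the untested Etv1, replicate 3 was the lowest library for 4 of the 8 genes tested (Dusp6, Spry2, Spred1 and Etv5; 30.0% of all genes tested) and the highest for 2, Dusp4 and Spry1 (34.0% of all genes tested).

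**Figure D3:**
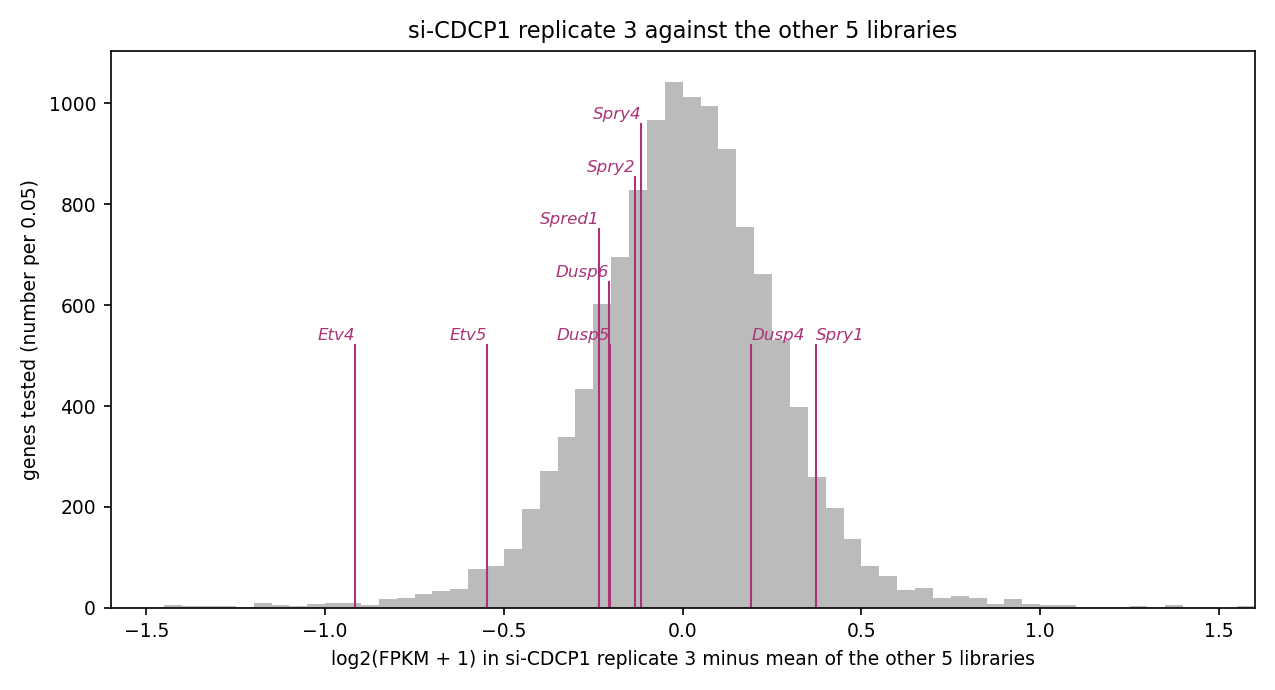
Distribution over the 12080 genes tested (grey bars, genes per bin of 0.05) of log2(FPKM + 1) in si-CDCP1 replicate 3 minus the mean of the other 5 libraries (horizontal axis), with a vertical line for each of the 9 genes above the filter; line heights carry no value. Etv4 is at -0.92, a value that entered the choice of genes, Etv5 at -0.55, the 5 lines from Spred1 to Spry4 at -0.23 to -0.12, and Spry1 at 0.37.

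The protein-coding genes whose values over the 6 libraries were most like those of Etv4 were Mturn, Vps37d, Mdfi, Layn and Vnn3. Likeness was the root mean square distance between log2(FPKM + 1) values centred on each gene's mean, and these 5 were at 0.10 on that log2 scale, the closest of 10481 candidates. Mdfi, which encodes an inhibitor of MyoD family factors, was at 5.83, 5.26 and 5.34 FPKM in si-NC, 5.44 and 4.84 FPKM with si-CDCP1 in replicates 1 and 2 and 2.74 FPKM in replicate 3. Layn, which encodes the hyaluronan receptor layilin, was between 4.28 and 4.33 FPKM in the si-NC libraries and at 3.69, 3.62 and 1.86 FPKM in si-CDCP1 replicates 1, 2 and 3. Each of the 5 was lowest in replicate 3, the library that set the Etv4 pattern. The Etv4 value in that library entered the choice of genes, so the likeness is a description only.

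Taking the genes as a set, 0 of the 8 tested without Etv4 passed an adjusted p of 0.05 in limma, as did 0 of all 12080 genes (0.0%). At an unadjusted p under 0.05, 2 were higher (Dusp4 and Spry1), against 1080 of all genes (8.94%), and 3 were lower (Dusp5, Dusp6 and Spred1), against 642 of all genes (5.31%). The same 2 and 3 genes were those whose groups did not overlap, against 14.4% of all genes on the higher side and 10.6% on the lower side. Leaving out si-CDCP1 replicate 3 cannot make such groups overlap; it added Spry2 on the higher side, for 3 higher and 3 lower, against 19.9% of all genes higher and 16.2% lower. Of the 8, 6 had negative log2 differences, against 47.7% of all genes. That share depends on the scaling: 52.3% of all genes had positive differences as deposited, and 38.4% with libraries scaled to equal FPKM sums. With equal sums, 537 of all genes were higher and 1301 lower at an unadjusted p under 0.05 in limma. The median log2 difference of the 8 members without Etv4 was -0.15, and -0.10 without replicate 3, beside 0.01 over all genes tested in either case. With Etv4, whose value entered the choice, the medians of the 9 genes were -0.18 and -0.09.

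Members were called only with library weights and in limma voom without si-CDCP1 replicate 3. Limma voom on recovered reads called 5 of 14365 genes (0.0348%) and 0 of the 9 members it tested without Etv4. Without si-CDCP1 replicate 3, voom called 1 of these 9, Spry1, with a log2 difference of 0.38 (SE 0.070, adjusted p = 0.00525). Of all 14365 genes that fit called 491 in either direction (3.42%), 342 of them higher (2.38%). Over the 18 fits tried the adjusted p of Spry1 ranged from 0.00525 to 0.645. With library weights in limma, which gave si-CDCP1 replicate 3 a weight of 0.165 and replicate 2 one of 5.11, 2 of 8 were called, Spry1 (log2 difference 0.35, adjusted p = 0.0253) and Dusp5 (-0.29, adjusted p = 0.0291; 0.0291 to 0.645 over the 18 fits), against 865 of all genes (7.16%).

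The rest of the ERK pathway was read from 6 further lists, and 0 of their 73 tested genes passed the adjusted threshold in limma. At an unadjusted p under 0.05, 5 of the 73 were higher and 8 lower, against 8.94% and 5.31% of all genes. These shares depend on the scaling: with equal FPKM sums, 537 of all 12080 genes were higher and 1301 lower. Voom on all libraries called 0 of 79, and without si-CDCP1 replicate 3 it called 3, Egr1 (lower), Myc and Ets2 (higher), beside 491 of all 14365 genes (3.42%). Of the other DUSP genes, 8 of 9 were tested, with a median log2 difference of -0.02, and of -0.06 without si-CDCP1 replicate 3. Dusp1, an immediate early phosphatase that acts mainly on stress kinases, averaged 18.4 ± 0.810 FPKM with the control siRNA against 20.4 ± 1.15 FPKM with si-CDCP1, and Dusp7, a cytoplasmic ERK phosphatase, 9.74 ± 0.368 against 8.47 ± 0.845 FPKM (SD, n = 3 each; limma adjusted p = 0.346 for each). The log2 difference of Dusp7 was -0.18, and -0.11 without replicate 3. Of the remaining Sprouty, Spred and receptor feedback genes, 4 of 5 were tested, with a median of -0.09, or -0.06 without replicate 3. Spred3, the third Spred gene, averaged 3.03 ± 0.120 against 2.48 ± 0.226 FPKM with groups that did not overlap, and Spred2 19.2 ± 0.832 against 17.0 ± 2.06 FPKM with groups that did (limma adjusted p = 0.324 and 0.399; SD, n = 3 each). Both were lowest in si-CDCP1 replicate 3, without which the log2 difference of Spred2 went from -0.17 to -0.09.

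All 24 genes of the cascade between receptor and ERK were tested, 16 of them higher and 8 lower by sign, at a median log2 difference of 0.04, which was 0.0047 without si-CDCP1 replicate 3. Mapk3, which encodes the kinase ERK1, averaged 61.6 ± 2.85 FPKM with the control siRNA against 59.8 ± 3.79 FPKM with si-CDCP1 (SD, n = 3 each; limma adjusted p = 0.775). Araf, which encodes a RAF kinase, averaged 14.5 ± 0.567 against 12.8 ± 0.626 FPKM, and Rps6ka2, which encodes an ERK-activated RSK kinase, 28.9 ± 1.04 against 33.4 ± 3.31 FPKM (limma adjusted p = 0.301 and 0.323; n = 3 each). Without replicate 3 the log2 difference of Rps6ka2 went from 0.20 to 0.12, and that of Mapk3 turned from -0.04 to 0.01. Transcript levels do not report phosphorylation, so these values say nothing of ERK activity itself.

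Of 22 growth factor ligand and receptor genes, 21 were found by name and 14 tested, with a median log2 difference of -0.04, and of -0.03 without si-CDCP1 replicate 3. Fgfr1, a fibroblast growth factor receptor gene, averaged 24.7 ± 1.05 against 23.5 ± 0.931 FPKM, Pdgfra 10.4 ± 0.361 against 8.69 ± 0.984 FPKM and Igf1r 6.51 ± 0.381 against 5.57 ± 0.441 FPKM (SD, n = 3 each; limma adjusted p = 0.567, 0.316 and 0.328). Without replicate 3 the log2 difference went from -0.07 to -0.04 for Fgfr1 and from -0.24 to -0.15 for Pdgfra. The angiotensin receptor gene Agtr1a averaged 0.316 and 0.296 FPKM, and Agtr1b was listed at 0 in all 6 libraries.

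Other genes induced through ERK lay on either side. Of 12 such genes, 10 were tested, 4 of them on the positive and 6 on the negative side, at a median log2 difference of -0.09, and of -0.08 without si-CDCP1 replicate 3. Egr1, an immediate early zinc finger factor, was at 24.9, 27.5 and 22.6 FPKM in si-NC and at 20.0, 18.2 and 22.2 FPKM in si-CDCP1. Its log2 difference was -0.30 (limma adjusted p = 0.298, with 0.00554 to 0.645 over the 18 fits). Within the si-CDCP1 group Egr1 was highest in replicate 3. Myc was at 79.5, 78.7 and 78.0 FPKM against 95.0, 89.6 and 114.8 FPKM (log2 difference 0.33, limma adjusted p = 0.271, with 0.00447 to 0.645 over the 18 fits). Fosl1, which encodes the AP-1 subunit FRA-1, averaged 29.7 ± 0.477 against 32.1 ± 2.47 FPKM, the cyclin D1 gene Ccnd1 26.8 ± 1.37 against 22.9 ± 2.79 FPKM and Phlda1 16.7 ± 1.16 against 15.6 ± 1.10 FPKM (SD, n = 3 each; limma adjusted p = 0.433, 0.344 and 0.576). Without replicate 3 the log2 difference went from 0.11 to 0.05 for Fosl1 and from -0.22 to -0.13 for Ccnd1.

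Among 13 ETS factors and regulators of the PEA3 genes, all tested, 4 lay on the positive and 9 on the negative side, at a median log2 difference of -0.05, and of -0.03 without si-CDCP1 replicate 3. Cic, the repressor that ERK signalling removes from the PEA3 genes, was at 13.4, 14.5 and 13.7 FPKM in si-NC and at 13.4, 13.2 and 12.1 FPKM in si-CDCP1 (log2 difference -0.10, limma adjusted p = 0.452). Ets2, another ERK-responsive ETS factor gene, was at 41.3, 41.9 and 44.3 FPKM against 48.3, 52.1 and 70.9 FPKM. Its log2 difference was 0.40 (limma adjusted p = 0.306, with 0.00738 to 0.645 over the 18 fits). Ets2 was highest in si-CDCP1 replicate 3, as were 34.0% of all genes tested. Elk3, which encodes an ETS factor of the ternary complex with SRF, was at 10.7, 10.6 and 10.4 FPKM against 9.09, 9.51 and 7.39 FPKM (log2 difference -0.26, limma adjusted p = 0.306). Without si-CDCP1 replicate 3 the log2 differences of Ets2, Elk3 and Cic were 0.23, -0.16 and -0.06.

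**Figure D4:**
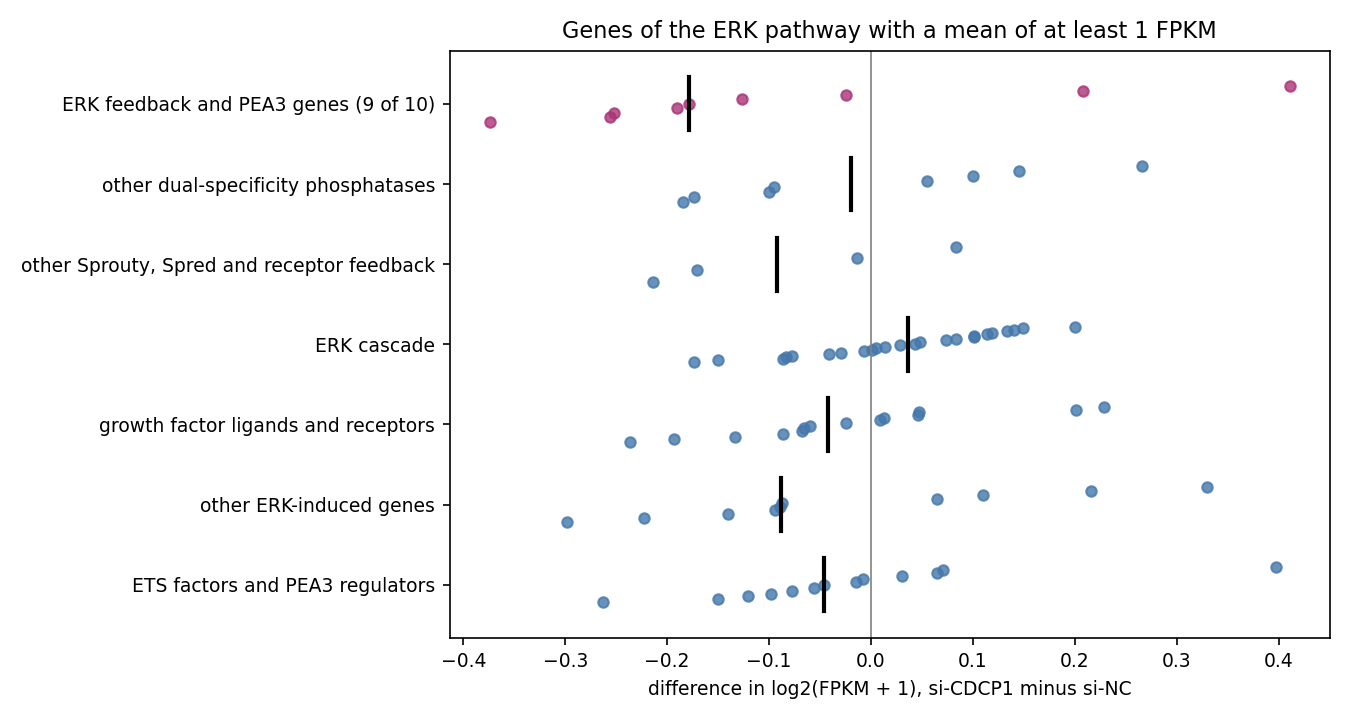
Difference in log2(FPKM + 1), si-CDCP1 minus si-NC (horizontal axis), for every gene that averaged 1 FPKM or more in the ERK feedback and PEA3 set (purple, 9 of 10 genes) and in 6 further lists of the pathway (blue), sorted within a row, with a black bar at each list's median. The medians plotted are over all 6 libraries, -0.18 for the ERK feedback and PEA3 set, Etv4 included, and 0.04 for the cascade; without si-CDCP1 replicate 3 they are -0.09 and 0.0047.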

How the data were processed

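Per the labels' protocols, column-purified RNA was made into polyadenylated RNA libraries with a template-switching kit. The authors deposited FPKM in 1 table of 6 libraries, per the file headers, and the submitters' processing notes name the genome build mm10. How reads were aligned and counted, strand included, is not given in the sources used here. In each library 100.0% of values, multiplied by gene length, were within 0.01 of a whole number of reads. The listed reads were 98.4% to 104% of the library total that these steps imply, so the deposited scaling is not by read number alone. This share differed by group: it was 98.4% throughout si-NC, against 99.9%, 99.9% and 104% for si-CDCP1. FPKM sums ran from 280056 to 282051 with the control siRNA and from 286916 to 294678 with si-CDCP1. The deposited scaling thus differs between the groups compared, and limma voom on recovered reads took the same implied totals.

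Genes that averaged 1 FPKM or more across all libraries were compared on log2(FPKM + 1) with limma 3.58.1 (R 4.3.3), two-sided and with an intensity trend. P-values were adjusted by the Benjamini-Hochberg method over all 12080 genes, at a threshold of 0.05. The script was tested on simulated data, in which no library stood apart as si-CDCP1 replicate 3 does. The labels do not say that replicates came from separate animals or cultures, so p-values measure only the spread of these samples, possibly a technical one. No replicate pair was a duplicate (chi-square per degree of freedom of recovered reads at least 3.01). Poisson intervals (exact, 95%) cover counting error only. Genes of the table that overlap a member lie at Spry1 and Spry4 alone and held at most 4 reads in a library.

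The genes, lists and alternatives were chosen with earlier results of these data known. Genes named are the 10 members, Cdcp1, the 2 smallest p-values of each list, a fixed set that includes Mapk3, Egr1 and Cic, the 5 genes most like Etv4, and cell type markers. One gene that the rule names is not reported here. Agtr1a and Agtr1b were named after their values were seen. The alternatives were other pseudocounts (0.1 and 0.01 FPKM), no filter, other scalings, no trend, library weights, a block for replicate number and each library left out. Chosen after seeing the data were limma voom on recovered reads (at least 10 reads in 3 libraries), the same without si-CDCP1 replicate 3, and a correction for gene length in each library (lowess, span 0.3).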

Additional observations from a re-analysis of the deposited data

How the results depend on the processing

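The number of genes called over the whole table was 0 in limma and stayed at 0 with other pseudocounts and without a trend; it was 7 without a filter, 1 with equal FPKM sums, 2 with quantile normalisation, 865 with library weights, 5 in limma voom, 491 in voom without si-CDCP1 replicate 3 and 3 with the length trend removed. With 1 library left out it was 0 to 1. With equal FPKM sums the genes at an unadjusted p under 0.05 were 537 higher and 1301 lower, against 1080 and 642 as deposited. The number of members called was 0 except for 2 with library weights and 1 in voom without si-CDCP1 replicate 3. The median log2 difference of the 9 members above the filter, Etv4 included, was -0.062 with library weights. This median ranged from -0.21 to -0.087 with 1 library left out. With library weights the median gene was Etv4 itself, whose value entered the choice of genes. The direction of each tested member was the same in all fits except for Spry2, which turned to 0.011 with library weights and 0.027 in voom without si-CDCP1 replicate 3, and ranged from -0.056 to 0.025 with 1 library left out (0.025 without si-CDCP1 replicate 3). Etv4 ranged from -0.55 without si-CDCP1 replicate 2 to -0.06 with library weights, and Dusp6 from -0.25 to -0.08. The cause of these shifts was not tested. With the replicate number as a block, 1 gene and 0 members were called. Deviations of libraries with the same number had correlations of -0.020, 0.026 and 0.022, and not every library correlated best with its own number. These values showed no pairing by number, but with so few libraries they cannot exclude it. The planned edgeR test and the TMM-scaled voom were not run, so no fit here used TMM scaling. Limma voom on recovered reads with the implied library totals was run instead. Dusp5, Spry4 and Etv1, on 38 to 203 reads a library, are limited by counting error.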
